A study of Homo sapiens with 18 samples.

Results

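The glucocorticoid receptor (GR) was mapped by ChIP-seq in A549 cells after 1 hour of IL-1β-plus-budesonide, and the deposited table gives its binding intensity at 11571 sites of 400 bp. All lines of the table for GR with both agents were taken, 11571 of the 46284 lines, since each site has 4 lines. A549 is a human lung adenocarcinoma line used as a model of pulmonary epithelium. The study compared untreated cells (NS), cells given IL-1β (1 ng/mL), cells given budesonide (300 nM) and cells given both agents together, with 2 independent experiments for each, in serum-free medium. Its 18 samples were 8 GR libraries, 8 RELA libraries and 2 inputs. Comparators from the same table are GR with budesonide alone, and RELA with IL-1β alone and with both agents.

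The study mapped both factors to ask what part each plays in the control of BIRC3 and BIRC2, and the cotreated GR libraries were compared with NS. No intensity of NS was among the values used. NS enters the table through the submitters' own fold and false discovery rate, which were not used, so recruitment over NS was not analysed here and the values below describe where GR was found with both agents and how strongly. Intensities are on a log-like scale with a lowest value of 0, and the base of the scale was not given in the sources used here. Differences are therefore differences of intensity and not folds. Each site has 1 value per condition, with both libraries combined, so that no spread between experiments and no test over libraries could be given.

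GR is a nuclear receptor that is held in the cytoplasm by chaperones until a glucocorticoid such as budesonide binds it. In the nucleus it binds glucocorticoid response elements (GREs), imperfect inverted repeats of a hexamer, or it is found at DNA that carries other factors. IL-1β activates NF-κB, whose subunit RELA binds κB elements and drives inflammatory genes of the airway epithelium. Glucocorticoids are the mainstay of asthma therapy, and both factors are active in an inflamed airway under treatment.

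The sites below are shown because they are the strongest GR-binding regions that are single in the genome, those with the largest gap between cotreatment and budesonide, or well known loci of either pathway. Sequences are of the plus strand of GRCh38. Capitals mark every match in the printed stretch to at least 9 of the 12 defined positions of a GRE (AGAACA, 3 free bases, TGTTCT) and every complete κB match. For the CXCL8 site, which has neither, capitals mark the κB-like stretches with 8 of 9 positions. A match describes letters and not binding.
PRR20G upstream, chr3:127304334-127304476: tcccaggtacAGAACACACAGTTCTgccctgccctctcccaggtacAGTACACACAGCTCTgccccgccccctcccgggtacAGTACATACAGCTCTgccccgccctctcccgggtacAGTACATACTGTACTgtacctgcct
PTPN1 upstream, chr20:50415747-50415846: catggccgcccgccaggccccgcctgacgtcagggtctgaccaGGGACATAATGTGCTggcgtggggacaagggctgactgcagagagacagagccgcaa
ZFP36 downstream, chr19:39409686-39409785: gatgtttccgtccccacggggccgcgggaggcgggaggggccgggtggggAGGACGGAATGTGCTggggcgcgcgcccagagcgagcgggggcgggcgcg
FKBP5 intron near the start, chr6:35722637-35722773: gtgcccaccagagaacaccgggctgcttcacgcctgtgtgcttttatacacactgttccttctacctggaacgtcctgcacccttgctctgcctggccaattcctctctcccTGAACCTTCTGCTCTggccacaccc
FKBP5 intron far from the start, chr6:35602035-35602153: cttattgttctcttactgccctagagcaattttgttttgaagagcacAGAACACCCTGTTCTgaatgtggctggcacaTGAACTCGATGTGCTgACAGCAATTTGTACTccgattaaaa
DDIT4 upstream, chr10:72248935-72249034: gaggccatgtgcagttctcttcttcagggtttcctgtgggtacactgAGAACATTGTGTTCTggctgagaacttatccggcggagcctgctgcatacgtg
PER1 intron, chr17:8154419-8154518: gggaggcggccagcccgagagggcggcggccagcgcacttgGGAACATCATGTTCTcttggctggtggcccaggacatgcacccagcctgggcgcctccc
FSTL3 upstream, chr19:674634-674819: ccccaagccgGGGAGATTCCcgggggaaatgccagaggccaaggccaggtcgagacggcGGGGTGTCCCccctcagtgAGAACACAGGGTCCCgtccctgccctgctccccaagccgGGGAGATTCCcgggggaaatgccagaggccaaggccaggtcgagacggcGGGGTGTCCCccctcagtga
SERPINA2 downstream, chr14:94346033-94346230: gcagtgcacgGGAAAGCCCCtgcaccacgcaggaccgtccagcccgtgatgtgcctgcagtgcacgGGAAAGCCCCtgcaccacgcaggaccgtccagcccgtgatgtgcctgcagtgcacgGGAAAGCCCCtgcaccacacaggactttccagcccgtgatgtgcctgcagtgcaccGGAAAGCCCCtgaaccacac
CXCL8 upstream, chr4:73734711-73734879: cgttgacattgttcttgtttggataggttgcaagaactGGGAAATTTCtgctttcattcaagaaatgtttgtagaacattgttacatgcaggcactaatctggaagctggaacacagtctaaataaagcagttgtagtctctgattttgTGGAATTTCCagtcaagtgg
TNFAIP3 intron, chr6:137873486-137873585: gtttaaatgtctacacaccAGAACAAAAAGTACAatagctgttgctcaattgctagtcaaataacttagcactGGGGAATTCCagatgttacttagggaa
PRKCH locus, chr14:61545887-61545995: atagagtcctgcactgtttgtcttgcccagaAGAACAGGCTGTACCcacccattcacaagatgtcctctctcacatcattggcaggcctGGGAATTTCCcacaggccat
C1orf226 downstream, chr1:162388676-162388792: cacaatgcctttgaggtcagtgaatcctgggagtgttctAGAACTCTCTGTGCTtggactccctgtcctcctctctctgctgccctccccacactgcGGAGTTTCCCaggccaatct

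With both agents, most sites of the table carried GR of middle intensity and few carried very high intensity. The median over the 11571 sites was 4.64, the middle 50% lay between 3.72 and 5.47, and 90% lay between 2.18 and 6.94. A round limit of 4 was reached by 7895 sites, 68.2% (95% Wilson interval 67.4 to 69.1, counting error only). Only 154 sites, 1.33%, reached 8, and 50 sites stood at 0. The highest value was 10.8. Budesonide alone gave nearly the same median, 4.65, but a wider spread, with 234 sites at 0 and 7120 sites at 4 or more. The sites with weak GR after budesonide thus formed a shoulder that is narrower with both agents, as the histogram shows.

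**Figure D1:**
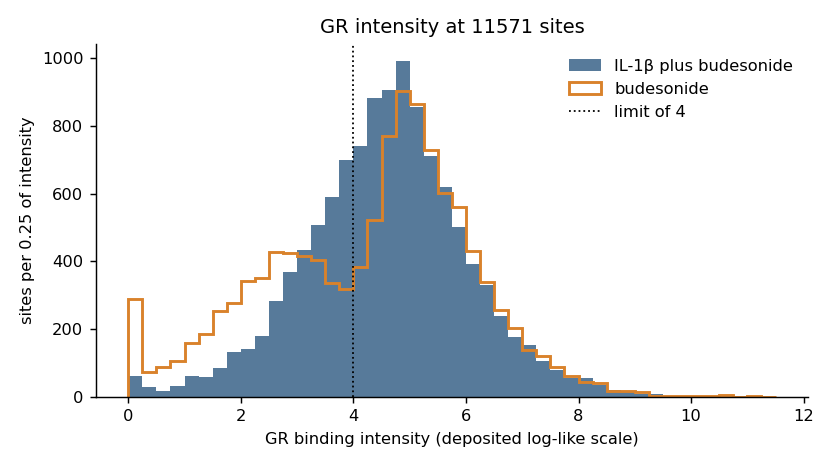
Number of the 11571 sites in each 0.25 step of GR binding intensity (deposited log-like scale), after IL-1β-plus-budesonide (filled) and after budesonide (outline), with the limit of 4 dotted. The cotreated values form a single hump around 4.64, whereas budesonide has a shoulder of weak sites and 234 sites at 0.

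How sites were chosen for the table was not given in the sources used here, but their intensities show a limit near 4. Only 64 of the 11571 sites, 0.553%, had none of their 4 intensities at 4 or more, and 2120 sites had all 4 at that level. For 135 sites, GR with both agents was the only value to reach 4. Nearly every site with little GR after cotreatment thus had a high value in another condition of the table, and shares among weak GR sites have to be read with that in mind. Of the 25% of sites with the weakest cotreated GR, 72.7% had a RELA intensity of at least 4 with IL-1β, against 53.3% of the 25% with the strongest.

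Most of the very strongest GR signals lay in repeated sequence with similar values in all 4 conditions. Of the 10 sites with the highest cotreated GR intensity, 7 lay in sequence that occurs at least 2 times in GRCh38, judged by the median number of occurrences of the 31-base words of the site. At the highest, chr16:46389530-46389929, GR was 10.8 with both agents and 11.0 with budesonide, and RELA was 10.8 with IL-1β and 10.5 with both. The second on chromosome 16, chr16:46387729-46388128, had 10.3 and 10.8 for GR and 10.5 and 10.2 for RELA in the same order. The intensities of these sites differed little between antibodies and treatments. The others of this kind were chr21:10325635-10326034 with a cotreated GR intensity of 10.1, chr4:49154714-49155113 with 9.94, chr4:49148996-49149395 with 9.85, chr13:18211900-18212299 with 9.72 and chr17:26883856-26884255 with 9.43. Repeated sites numbered 682, 5.89% of all, and 20 sites had all 4 intensities at 8 or more, 14 of them repeated and none with a GRE. Repeated sites made up 22 of the 100 strongest but had nearly the same median as the 10889 others, 4.82 against 4.63.

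The strongest single-copy GR site lay 16.4 kb upstream of PRR20G on chromosome 3 and holds a tandem array of GRE-like sequence, printed above. Its GR intensity was 10.4 with both agents and 10.5 with budesonide, while RELA was 2.95 with IL-1β and 6.35 with both. The best of its 6 GRE-like matches had 11 of 12 positions. Next came an intergenic site 94.5 kb upstream of PTPN1, a protein tyrosine phosphatase gene, with 9.77 for cotreated GR and 9.57 with budesonide. The third, 2.89 kb from the start of ZFP36 and just beyond the end of the gene, had 9.54 with both agents and 10.1 with budesonide. ZFP36 encodes tristetraprolin, which promotes the decay of cytokine mRNAs. At all 3 sites RELA was higher with both agents than with IL-1β alone, at 7.14 against 5.18 at the PTPN1 site and 7.1 against 6.21 at the ZFP36 site.

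Promoters held a minority of the sites, and a larger share among the strong ones. A site was placed at a promoter when its centre lay within 1 kb of an annotated transcript start of a protein-coding or lncRNA gene. Of all sites, 13.0% were at promoters, 52.1% in introns, 31.7% between genes and 3.24% in other exons. The promoter share was 16.3% (15.0 to 17.7) in the strongest 25% by cotreated GR and 11.3% (10.2 to 12.5) in the weakest 25%. Cotreated GR had a median of 4.83 at promoters and 4.59 in introns, whereas budesonide alone gave 4.53 and 4.68. Promoter sites also held κB elements more often, at 25.5% against 16.9% of intronic sites, and GREs less often, at 9.39% against 13.3%.

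Among promoter sites, the strongest besides the repeated one on chromosome 13 was chr14:94599138-94599537, with a cotreated GR intensity of 9.29 and 8.87 with budesonide, inside the unnamed gene ENSG00000273259. A promoter site within VMP1, chr17:59837510-59837909, had 8.92 with both agents and 8.96 with budesonide. VMP1 encodes a membrane protein of autophagy. The site 0.62 kb upstream of ZFAND5, chr9:72365654-72366053, had 8.85 and 8.91, with 2 GREs of at least 10 positions. At these 3 sites GR differed by less than 0.5 between both agents and budesonide. The fifth promoter site, in the PRKCH locus and printed above, stood apart with 8.71 with both agents and 6.85 with budesonide, and it is the strongest single-copy site that holds both a GRE and a κB element.

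Strong sites also lay closer together. A further site lay within 10 kb of 47.0% of sites in the strongest 25% and of 25.5% in the weakest 25%. Joined at that distance, the 11571 sites formed 9092 runs, of which 7409 were single sites and 72 held 5 or more, 435 sites in all. A run of 9 sites over 41.4 kb around VMP1 and TUBD1 on chromosome 17 had all 9 at 4 or more with both agents and 7 with budesonide. Around UPK2 and BCL9L on chromosome 11, all 7 sites of a run of 15.6 kb reached 4 with both agents and 5 did with budesonide. Between ERRFI1 and SLC45A1 on chromosome 1, 7 sites in 28.6 kb reached 4 in both conditions, with a median of 6.11 with both agents and 6.58 with budesonide. ERRFI1 encodes a feedback inhibitor of the EGF receptor. The longest run, 21 sites over 73.6 kb nearest to TSPY10 on chromosome Y, went the other way. There 17 sites reached 4 with both agents and 20 with budesonide. Runs were ranked by the number of sites at 4 or more with both agents, which favours cotreatment. They were named after the values were seen, and some of the longest lie in repeated sequence.

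GREs became more frequent and κB elements less frequent with rising GR intensity. A GRE with at least 10 of 12 positions lay in the central 200 bp of 12.4% of sites, against 1.31% of windows 2000 bp away. In the weakest 10% of sites by cotreated GR the share was 3.02% (2.18 to 4.17) and in the strongest 10% it was 18.5%. A κB element with all 9 defined positions was in 18.7% of all sites and 1.97% of the windows 2000 bp away. Its share was 38.0% (35.2 to 40.8) in the weakest 10% and 8.64% in the strongest 10%. Even there κB elements were more frequent than in the windows away from the sites. Without the repeated sites, the strongest 25% had GREs at 17.6% and κB elements at 11.1%.

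**Figure D2:**
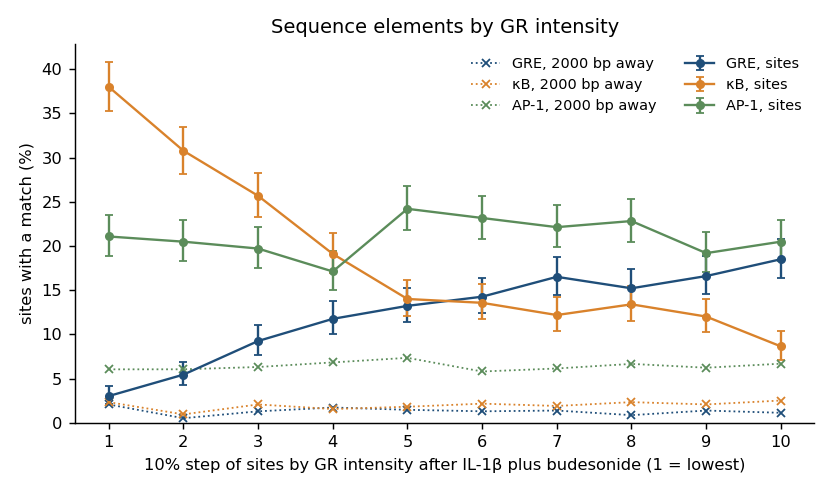
Percentage of sites with a GRE, κB or AP-1 match in the central 200 bp, in steps of 10% of sites ordered by GR intensity after IL-1β-plus-budesonide, with 95% Wilson intervals (solid), and the same in windows 2000 bp away (dotted). GRE shares climb from 3.02% to 18.5%, κB shares fall from 38.0% to 8.64%, and AP-1 shares show no such slope.

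The elements of 3 other families of transcription factors showed smaller slopes. AP-1 elements (TGANTCA) were in 21.0% of sites against 6.41% of windows 2000 bp away, C/EBP elements (TTGCNNAA) in 20.2% against 10.1%, and forkhead elements (TGTTTAC) in 8.81% against 2.81%. In the weakest and the strongest 25%, AP-1 shares were 20.5% and 20.1%, C/EBP shares 23.2% and 18.4%, and forkhead shares 8.30% and 8.71%. All of them are motifs of factors found at enhancers of epithelial cells. Matches were sought on both strands, and overlapping matches of different elements were each counted.

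The better a site matched the GRE, the higher was its GR intensity, up to 11 of 12 positions. The median with both agents was 4.30 at the 3037 sites whose best match had 7 positions, 4.57 with 8, 4.86 with 9, 5.00 with 10, 5.09 with 11 and 5.03 at the 43 sites with all 12. The share of sites at 4 or more went in the same order from 58.1% to 90.7%. From 8 to 12 positions the best match lay ever nearer to the site's centre, at medians of 30.5, 20.5, 14.5, 13.5 and 12.5 bp. For 6 positions the median was 9.5 bp. Of equally good matches the one nearest to the centre was kept, so the distances of poor matches cannot be compared with these. A full GRE did not set the level, since the middle 50% of sites with 12 positions spanned 4.58 to 6.14. The site in the FKBP5 intron with a perfect GRE, 126.5 kb from the start, had a cotreated GR intensity of 7.30, below the 8.96 of the site 5.90 kb from the start, whose best match had 9 positions.

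Sites that hold both elements had the highest median GR intensity with both agents, and GR was higher there with both agents than with budesonide, by a median of 1.34 against 1.12 at sites with a κB element alone. The 83 sites with a GRE and a κB element had a median of 5.33 with both agents and 3.99 with budesonide. At the 2085 sites with a κB element and no GRE the medians were 3.88 and 2.63. Here 87.4% of sites were higher with both agents. The 1349 sites with a GRE and no κB element had 5.01 and 5.32, and 29.5% of them were higher with both agents. The 8054 sites with neither had 4.71 and 4.83, and 49.9% were higher. Over all sites 54.5% were higher. GR was thus lower with both agents than with budesonide at most sites that have a GRE alone. These classes also differed in the condition that brought them into the list. GR after budesonide reached 4 at 93.7% of sites with a GRE alone and 14.2% of those with a κB element alone. RELA with IL-1β had medians of 2.68 and 5.23 there. The differences between classes cannot be told apart from this selection.

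**Figure D3:**
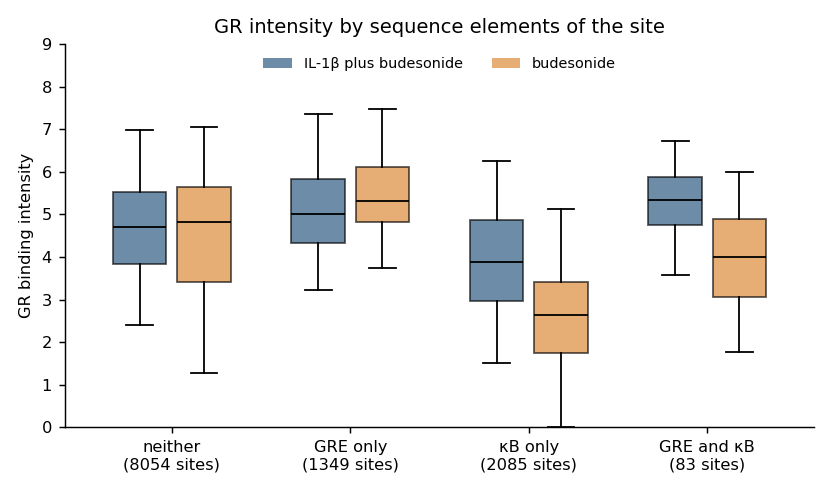
GR binding intensity after IL-1β-plus-budesonide (blue) and after budesonide (orange) at sites grouped by the elements in their central 200 bp. Boxes show the median and quartiles over sites and whiskers the 5th and 95th percentiles. Sites with a GRE and a κB element have medians of 5.33 and 3.99, and those with a GRE only 5.01 and 5.32.

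A pair of these double sites is printed above. At the PRKCH locus the GRE match has 10 positions, and RELA was 5.22 with IL-1β and 7.1 with both agents. The C1orf226 site, 9.88 kb from the start of that gene, had GR intensities of 7.64 with both agents and 6.33 with budesonide. Of the other double sites in single-copy sequence, one 49.1 kb upstream of KLF4, a Krüppel-like factor gene, had 7.51 and 5.34. One 0.26 kb upstream of EBI3, which encodes a subunit of the cytokines IL-27 and IL-35, had 7.42 and 3.57. At all of these sites both GR and RELA were higher with both agents than with the single agent.

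More copies of an element went with different patterns for GREs and κB elements. In the whole 400 bp, sites without a GRE had a cotreated GR median of 4.56, the 1494 with 1 had 5.00 and the 94 with 2 had 5.26. Only 10 sites had 3 or more. For κB elements the medians were 4.75 for none, 4.07 for 1, 3.96 for 2, 4.08 for the 25 sites with 3 and 4.00 for the 19 with 4 or more. The gap to budesonide had a median of -0.11 without a κB element, 1.10 with 1 and 1.29 with 2. This gap, too, cannot be told apart from the selection of sites. A second κB element thus went with no higher GR level.

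The largest gaps between cotreatment and budesonide were at a pair of tandem κB arrays. Upstream of FSTL3, whose product binds activin, the site 1.65 kb from the start had GR intensities of 9.41 with both agents and 2.66 with budesonide, a difference of 6.76. RELA was 7.29 there with IL-1β and 9.18 with both. The site holds 7 κB elements and 2 GRE-like matches in a repeat of the genome whose words occur 2 times. A site 20.5 kb from the start of SERPINA2 had 8.92 and 2.76 for GR and 8.98 and 9.97 for RELA, and its 7 κB elements lie in words that occur 3 times. Copies of a repeat can share reads, so the levels at the FSTL3 and SERPINA2 arrays cannot be tied to 1 copy.

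In single-copy sequence the gap was widest at TCHH and CXCL8. The TCHH site, in an exon of that gene, had a GR intensity of 6.07 with both agents and 0 with budesonide. CXCL8 encodes the neutrophil chemokine interleukin-8. Its site 5.76 kb upstream of the start, printed above, had 6.06 and 0.01, and RELA was 6.71 with IL-1β and 7.11 with both. The CXCL8 promoter site had a cotreated GR intensity of 6.05 and 4.73 with budesonide. Others with a gap over 5 included sites in introns of CRIM1, with 7.53 and 1.65, and of JAK1, with 5.77 and 0. A site 2.85 kb from the start of CXCL2 had 5.39 and 0. RELA with both agents was above 5 at each of these sites. Where budesonide stood at or near 0, the lowest value of the scale, the depth is unknown and the size of the gap depends on that limit.

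Over all sites the difference between GR with both agents and with budesonide had a median of 0.12, with the middle 50% between -0.56 and 1.04 and a range from -4.63 to 6.76. It was above 1 at 3007 sites, 26% of the table, and below -1 at 1438, 12.4%. The sign of the median depends on which sites are counted, since it was -0.09 at sites with an intensity of 4 or more in either condition. The lowest difference was at a site in an intron of ATP7A, with 0 with both agents and 4.63 with budesonide. In an intron of TFCP2L1, chr2:121260642-121261041, GR was 1.42 with both agents and 5.37 with budesonide. At both of these sites RELA was under 3 in either condition. The order of sites by GR intensity was similar with and without IL-1β, with a Spearman coefficient of 0.69 over 11571 sites. It was 0.34 with RELA after both agents and -0.04 with RELA after IL-1β. These coefficients describe sites that share a table and its selection, and they carry no p-value.

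**Figure D4:**
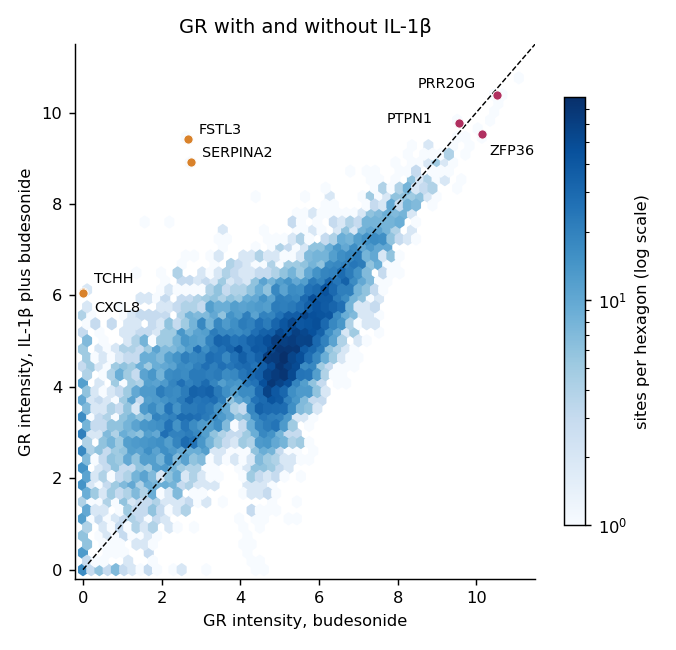
GR intensity after IL-1β-plus-budesonide against GR intensity after budesonide at 11571 sites, shaded by the number of sites on a log scale, with the line of equality dashed. Orange points are the 4 sites with the largest difference, among them FSTL3 at 9.41 against 2.66, and red points the 3 strongest single-copy sites, which lie near the line. Sites of weak GR after budesonide lie mostly above the line.

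At the limit of 4, cotreated GR took in most sites seen with budesonide and a further group where RELA was strong. GR reached 4 in both conditions at 6018 sites, with both agents alone at 1877, with budesonide alone at 1102 and in neither at 2574. The 1877 sites reached only with both agents had κB elements at 37.7% and GREs at 5.70%, and 90.2% of them had RELA at 4 or more with both agents. The 6018 shared sites had κB elements at 5.38% and GREs at 18.3%. The 1102 sites reached only with budesonide had κB elements at 1.27% and GREs at 18.3%, and 8.71% had RELA at 4 or more. The 2574 sites reached in neither had κB elements at 43.6% and GREs at 0.78%. RELA was at 4 or more at 73.3% of them with both agents and at 95.3% with IL-1β. Since nearly every listed site has a value of 4 or more in some condition, sites reached in neither were mostly listed through RELA. Frequent κB elements and RELA at 4 or more thus marked both groups with GR under 4 after budesonide. This cannot be told apart from the selection of sites. Of all 7895 sites with cotreated GR at 4 or more, 65.4% had RELA at 4 or more in the same treatment. This is near the 61.8% of all 11571 sites.

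The share of sites with higher GR after cotreatment than after budesonide went up with RELA after IL-1β alone. In the 25% of sites with the lowest RELA, up to 2.86, GR had medians of 4.67 with both agents and 5.12 with budesonide, and 23.8% of sites were higher with both. In the groups between, 37.8% and 71.4% were. In the 25% with the highest RELA, from 5.24 upwards, the medians were 4.68 and 3.33, and 85.0% were higher with both. The cotreated medians did not follow the order of RELA, since they were 4.94 and 3.92 in the 25% groups between these ends, where budesonide gave 5.16 and 3.10. GR reached 4 with both agents at 74.8% of sites in the lowest 25%, 82.3% and 48.1% in the groups between and 67.7% in the highest. With budesonide it did so at 92.6% of sites in the lowest 25% and 36.1% in the highest. Nearly every listed site had a value of 4 or more in some condition, so sites of low RELA mostly had strong GR after budesonide. The trend of the difference with RELA cannot be told apart from this selection of sites.

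The genes of both pathways had a GR site of at least 4 nearby after cotreatment more often than all protein-coding genes. Of 20007 protein-coding genes, 6319 had a site with a cotreated GR intensity of at least 4 in the gene or within 50 kb of it, 31.6%. The counts below are to be read against that share, and the lists were chosen with earlier results of these data known. Among 30 glucocorticoid targets, 26 had such a site, and among 30 NF-κB targets 29 had one. It was 5 of 14 for GR and its coregulators, near the background, 10 of 20 for lung epithelial genes, where a window of 20 kb gave 4 of 20 and 21.2% of all genes, and 0 of 12 for genes of other tissues. Genes differ in length, with a median of 15.1 kb for the glucocorticoid targets and 27.5 kb for all protein-coding genes.

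Among the 5 glucocorticoid targets with the highest values, ZFP36 led with 9.54, against 10.1 with budesonide, and the other 4 differed by less than 0.5 between the conditions. ZBTB16, a zinc finger repressor gene, followed with a site 120.4 kb into the gene, with GR at 9.14 with both agents and 9.21 with budesonide. PER1, a gene of the circadian clock, had 8.97 and 8.65 at an intronic site with a GRE of 11 positions. FKBP5, which encodes a co-chaperone that restrains GR, had 8.96 in both conditions. DDIT4, an inhibitor of mTORC1 signalling, had 8.95 and 8.93 at a site 24.9 kb upstream with a perfect GRE. RELA intensities at these 5 sites were 5.09 to 7.1 with both agents and 1.26 to 6.21 with IL-1β. With IL-1β they were under 4 at ZBTB16, FKBP5 and DDIT4. Over the 28 members with a site, the median of the strongest site was 6.89 with both agents and 7.07 with budesonide, and 13 were higher with both agents. The difference was above 1 for 3 of them and below -1 for 3. Of the 8205 protein-coding genes with a site, 4797 were higher with both agents. The difference was above 1 for 2161 of these genes and below -1 for 655. No site within 50 kb was listed for GLUL or CDKN1C.

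Several sites crowded around FKBP5, and they did not move alike. The 7 sites within 50 kb had cotreated GR intensities from 3.32 to 8.96. The site near the promoter, 0.80 kb from the start, was 6.87 with both agents and 5.94 with budesonide, and the site 3.45 kb upstream was 8.17 and 7.78. Deep in the gene, 126.5 kb from the start, GR was 7.30 and 8.26, and 137.8 kb from the start it was 4.78 and 6.11. Nearer the start, the site at 5.90 kb had 8.96 in both conditions, and the site at 13.0 kb had 3.32 and 4.76, the lowest difference of the locus. RELA with both agents was 5.93 at the site 0.80 kb from the start and 3.78 at the site farthest from it.

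NF-κB targets had weaker GR sites than glucocorticoid targets, and most were higher with both agents. NFKBIA, which encodes the inhibitor IκBα, led with 8.44 at a site 0.72 kb into the gene, lower than the 9.47 with budesonide. BIRC3 and BIRC2, neighbouring genes for inhibitors of apoptosis, share their strongest site, chr11:102306245-102306644, with 7.90 and 7.62. TNFAIP8 had 7.88 with both agents and 6.26 with budesonide at a site with a κB element. TNFAIP2 had 7.61 and 7.49. Over the 29 members with a site, the median of the strongest was 6.07 with both agents and 4.85 with budesonide. Of them, 27 were higher with both agents, 18 by more than 1. The site of each gene was picked for its cotreated value, which favours cotreatment, and of the 8205 protein-coding genes with a site 4797 were higher with both agents, 2161 by more than 1. For 1 member, NFKBIA, the difference was below -1, as it was for 655 of the 8205 genes. VCAM1 had no site listed.

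The other members of this list include some of the widest gaps. At the promoter of NFKB1, the gene of the p105 precursor, GR was 4.67 with both agents and 0.01 with budesonide. The budesonide value there is near the lowest of the scale. IRF1 had 5.47 and 2.34, CXCL1 had 4.91 and 2.06, and SOD2 had 5.17 and 2.4. These were chosen after their values were seen. In TNFAIP3, which encodes the deubiquitinase A20, the intronic site printed above had 7.09 with both agents and 5.89 with budesonide and holds a κB element and a GRE-like match of 9 positions. At the NFKBIA locus, 9 sites in the gene or downstream of its end had cotreated GR from 2.86 to 8.44.

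GR and its coregulators had a site at 4 or more about as often as all protein-coding genes, 5 of 14 against 31.6%. These genes are long, with a median of 129.8 kb against 27.5 kb. NCOA3, a coactivator gene, had 6.77 with both agents and 6.87 with budesonide. PTGES3, whose product is the co-chaperone p23, had 5.62 and 4.93. NCOR1 had 4.97 and 5.36, and NCOA2 had 4.48 and 2.82. NR3C1 itself, the GR gene, had a strongest site of 3.96, below the limit. No site was listed for FKBP4, HSP90AA1, CREBBP, MED1, NRIP1 or EP300.

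Of the lung epithelial genes, SFTPB, which encodes surfactant protein B, had the strongest site, 40.1 kb upstream, with a GR intensity of 8.51 with both agents and 8.80 with budesonide. The neighbouring keratin genes KRT8 and KRT18 share a site of 8.01 with both agents and 8.29 with budesonide. CLDN4, a tight junction gene, had 6.12 and 4.36. GATA6, a lineage factor gene, had 5.83 and 5.12. For 6 of the 20 genes no site was listed.

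The genes of other tissues had hardly any sites, and none of them reached 4. No site was listed for the muscle genes MYOD1, MYOG, TTN and CKM, for the neural and glial genes OLIG3, NEUROD1 and GFAP, or for ALB, INS and HBB, which encode albumin, insulin and a globin.

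At the 50 sites where cotreated GR was listed at 0, RELA had a median of 4.61 with IL-1β and 3.78 with both agents, and RELA reached 4 at 44 of them with IL-1β and at 22 with both. GR after budesonide reached 4 at only 2 of them, so their RELA values are tied to how sites were selected. A κB element was in 46% of them and a GRE in none. Over all sites the shares were 18.7% and 12.4%, and in the weakest 10% by cotreated GR they were 38.0% and 3.02%. The depth behind a 0 is unknown, so GR there is only listed at 0.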

How the data were processed

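The series holds 18 ChIP-seq samples of A549 cells, in 9 groups of 2 libraries. Per the paper's methods and the submitters' processing notes, reads were converted with bcl2fastq, checked with FastQC 0.10.1 and aligned to GRCh38 (hg38) with Bowtie2 2.4.4. SAMtools, MACS2 2.2.7.1 and DiffBind 3.2 are also named there. The deposited table gives, for each site, antibody and treatment, a binding intensity, which is a score of the authors on a log-like scale. How the 2 libraries were combined and scaled was not given in the sources used here, and the depth per library is unknown. The table also holds the authors' fold over NS, its false discovery rate and labels of significance, behavior and trend. These columns are comparisons by the authors and were not used, so GR against NS was not analysed here, nor was GR after IL-1β or RELA after budesonide.

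Starts in the table count from 0, since 3301 distances to gene starts then match GENCODE 44 and 66 otherwise, and coordinates are given from 1. Places came from GENCODE 44 and sequences from the GRCh38 reference. Sequences overlapping an annotated untranslated region were not printed. A site was called repeated when the median count of its 31-base words in the genome was at least 2. GREs needed 10 of 12 positions, and κB, AP-1, C/EBP and forkhead elements every defined position, in the central 200 bp on both strands, with windows 2000 bp away as background. Matches starting less than 10 bp apart were counted as 1. The search and the word count were tested on simulated data. Shares have 95% Wilson intervals for counting error. No test was run, because the table has 1 value per site and condition.

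Named are the 10 sites with the highest cotreated GR intensity, the 5 highest promoter sites, the strongest site of the 5 highest members of each gene list within 50 kb of the gene, and every gene of the list of other tissues. Some results that this rule covers are not reported here. Other sites were chosen after their values were seen. The members and lists were chosen with earlier results of these data known. Alternatives were other limits, windows, promoter distances and GRE definitions, and leaving out repeated sites. Analyses ran in Python 3.11.15 with pysam 0.24.0, NumPy 2.4.6, Numba 0.67.0, pandas 2.3.3, Matplotlib 3.10.9 and SciPy 1.17.1.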

Additional observations from a re-analysis of the deposited data

How the results depend on the processing

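No paired analysis was possible because the table gives 1 value per site and condition and none per library, so no replicate could be left out either. The share of sites with cotreated GR at the limit was 87.5% at a limit of 3 and 37.8% at 5. With promoters drawn at 2.5 kb, the promoter share was 24.8% in the strongest 25% of sites and 18.6% in the weakest. With 11 of 12 GRE positions, the GRE share was 4.29% in the strongest 25% and 1.04% in the weakest, and over the whole 400 bp it was 18.9% in the strongest. In each of these settings the strongest 25% had the higher share. The median difference from budesonide turned to -0.087 at sites with an intensity of at least 4 in either condition, which leaves out sites that are weak in both. At a limit of 5, 3 of the 14 genes of GR and its coregulators had a site, against 21.3% of all protein-coding genes. At 20 kb, 4 of the 20 lung epithelial genes had one, near the 21.2% of all genes, so the higher share of this list at 50 kb depends on the window. At 100 kb, 1 of the 12 genes of other tissues had one, against 45.1%. The other 20 values, those without repeated sites included, a setting added after seeing the data, stayed within their counting interval or within 1.5 times the count.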
